A study of Mus musculus with 18 samples.

Results

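Autosomal DMC1 hotspots were compared directly between spermatocytes that lack EWSR1 and spermatocytes with a single intact copy of Prdm9. The sites were all rows of the deposited DMC1 table that do not lie on the X chromosome, 8744 of 9132 sites, and the remaining 388 X sites were left out. The table is labelled as common to B6, Ewsr1 CKO and Prdm9 het, and how a site was judged common is not given. Hotspots found in a single genotype may therefore be absent, and the results hold for the listed sites. At each site the Ewsr1 CKO value was divided by the Prdm9 het value after each column had been divided by its own sum over the autosomal sites, so the control strain enters no ratio. A site's share is therefore its part of the autosomal DMC1 signal of its genotype, given in parts per 1000000 (ppm).

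The samples were spermatocytes of mice 14 days after birth, and DMC1 was immunoprecipitated from sonicated chromatin in each group. Ewsr1 CKO animals carried a conditional Ewsr1 knockout with Stra8-iCre, a Cre recombinase driven by the promoter of a gene that is active in male germ cells as they approach meiosis. Prdm9 het animals were Prdm9+/-, and the controls were C57BL/6J (B6). The strain background of the Ewsr1 CKO and Prdm9 het animals is not given in the labels, so a difference of background and a difference of genotype cannot be told apart. Each group comprised 2 samples, but the table holds 1 value per group and does not say how the samples were combined. No difference could be set against the spread between animals, and no p-value is given.

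Meiotic recombination starts with programmed double strand breaks, which in mice fall at hotspots chosen by PRDM9. PRDM9 binds DNA with its zinc fingers and methylates histone H3 nearby on lysine 4 (H3K4me3) and lysine 36 (H3K36me3), and DMC1 then coats the single-stranded ends of the breaks during the search for a homologous partner. DMC1 signal at a hotspot reflects how often it is broken and how long its breaks last. EWSR1 is an RNA-binding protein with roles in transcription and splicing, which the study examined as a link between hotspots and the chromosome axis.

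The Ewsr1 CKO column summed to 765437 RPM (normalised reads, as deposited) over the autosomal sites, the Prdm9 het column to 136064 RPM and the B6 column to 713518 RPM. Because each column was set to the same total, only the distribution over sites was compared, and not the amount of DMC1. The Ewsr1 CKO values were whole multiples of 0.246 RPM, to within 0.05 of a step. If such a step was 1 read, the median autosomal site held 228 reads and the weakest 12, and the sampling error of the log2 value at the median site was 0.096. No common step was found in the Prdm9 het column, unlike the B6 column, so its sampling error could not be computed. Its lowest value was 0 RPM, against 2.95 RPM in Ewsr1 CKO and 4.89 RPM in B6. The Prdm9 het values may thus have been processed otherwise. What this does to ratios at weak sites and at Prdm9 het shares near 0 was not tested.

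As an example of sequence under sites with unlike ratios, a pair of promoter windows (250 bases before to 50 after a transcript start) is printed. They were picked from 44 candidate windows over 43 sites. Sites without such a window had ratios as far out as −2.85 and 7.67. Among protein-coding windows lying whole inside a site, these belong to the sites with the lowest and the highest log2 ratio of Ewsr1 CKO to Prdm9 het, with 1 ppm added to each share, and they were chosen after the values were seen. CpG dinucleotides are in capitals, each sequence runs 5′ to 3′ on the strand of the gene, and both come from RefSeq, build GRCm38.p6. The window of Rgs19, a regulator of G protein signalling, is at chr2:181691768-181692067 on the minus strand, and that of Vmn1r204, a vomeronasal receptor gene, at chr13:22555951-22556250 on the plus strand.
Rgs19: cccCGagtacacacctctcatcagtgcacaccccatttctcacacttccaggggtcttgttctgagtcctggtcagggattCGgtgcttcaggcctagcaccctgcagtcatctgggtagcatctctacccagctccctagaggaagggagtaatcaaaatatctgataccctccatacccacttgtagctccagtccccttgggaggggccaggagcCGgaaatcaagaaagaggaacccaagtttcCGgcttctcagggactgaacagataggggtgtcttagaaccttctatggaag
Vmn1r204: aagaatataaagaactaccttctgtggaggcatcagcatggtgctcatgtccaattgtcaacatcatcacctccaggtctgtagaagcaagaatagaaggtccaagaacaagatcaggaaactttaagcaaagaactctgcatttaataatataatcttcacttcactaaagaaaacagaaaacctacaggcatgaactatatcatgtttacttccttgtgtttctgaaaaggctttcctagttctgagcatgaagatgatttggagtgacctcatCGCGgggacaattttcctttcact
The Rgs19 window had a GC content of 53.3% with 4 CpG, and the Vmn1r204 window 38.7% with 2 CpG. The site over Rgs19 (181690293 to 181692470) had shares of 5.45 ppm in Ewsr1 CKO, 21.5 in Prdm9 het and 15.5 in B6, a log2 ratio of −1.80, with 2.83 RPM of H3K4me3. Its Ewsr1 CKO value of 4.17 RPM was near the lowest of that column (2.95 RPM), so the ratio rests on few reads. The site over Vmn1r204 (22554515 to 22556948) had 32.1, 12.6 and 20.7 ppm, a log2 ratio of 1.28, with 0.240 RPM of H3K4me3. At both, the B6 share lay between the mutants, and H3K4me3 was in the richest and the poorest decile.

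The distribution of DMC1 over the listed autosomal hotspots was broadly alike in the mutants (Spearman's rho 0.888 over 8744 sites, which share their libraries and are not replicates). Because the table is labelled as common sites, this likeness may not hold for all hotspots. The median share was 73.1 ppm in Ewsr1 CKO, with quartiles of 39.5 and 142. In Prdm9 het it was 66.3 ppm, with quartiles of 30.9 and 149. With 1 ppm added to each share, the log2 ratio (Ewsr1 CKO over Prdm9 het) had a median of 0.14, and its quartiles were −0.25 and 0.53. Of the sites, 5214 (59.6%) had the higher share in Ewsr1 CKO and 3530 in Prdm9 het. The 95% interval of that percentage by Wilson's method, 58.6 to 60.7%, treats sites as independent and covers no spread between animals. This excess of sites depended on the scaling. With columns set to equal medians, which itself pulls the median ratio towards equality, 49.9% of the sites were higher in Ewsr1 CKO. The median log2 ratio was then −0.0013. Signal was more evenly spread in Ewsr1 CKO. Its strongest 874 sites held 35.3% of the autosomal signal, against 37.3% for the strongest 874 sites of Prdm9 het and 38.6% for those of B6. It took 1567 sites to reach 50% of the signal in Ewsr1 CKO, 1408 in Prdm9 het and 1378 in B6.

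Large differences were found at a minority of sites and were unequal in direction. At 7716 sites (88.2%) the shares were within 2-fold of each other. The share was at least 2-fold higher in Ewsr1 CKO at 769 sites (8.79%) and at least 2-fold higher in Prdm9 het at 259 sites (2.96%). A difference of at least 4-fold was found at 156 sites in favour of Ewsr1 CKO (1.78%) and at 21 sites in favour of Prdm9 het (0.24%). The counts moved with the processing. With 10 ppm added in place of 1, 397 sites were at least 2-fold higher in Ewsr1 CKO, and 394 were when sites below the lower quartile of B6 DMC1 were left out. With equal medians, 564 sites were at least 2-fold higher in Ewsr1 CKO and 391 in Prdm9 het.

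**Figure D1:**
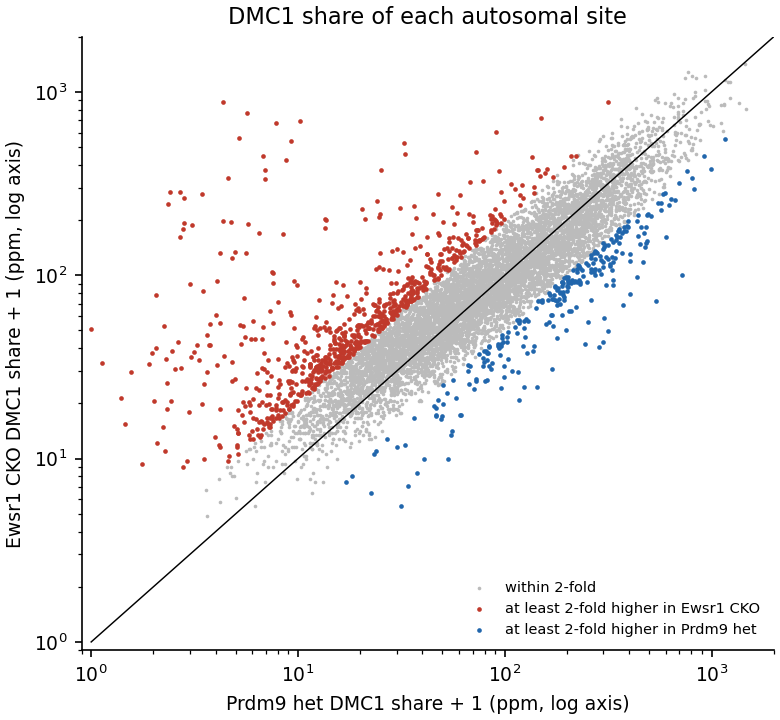
Share of autosomal DMC1 signal of each of the 8744 sites in Prdm9 het (x axis) and Ewsr1 CKO (y axis), each in ppm with 1 added, on log axes with the line of equality. Red sites, at least 2-fold higher in Ewsr1 CKO, number 769 and reach down to a Prdm9 het share of 0, while the 259 blue sites, at least 2-fold higher in Prdm9 het, stay close to the main cloud.

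The sites favoured by each genotype differed in strength and in H3K4me3. Sites at least 2-fold higher in Ewsr1 CKO were weak, with a median B6 share of 35.0 ppm against 66.3 over all sites, and 325 of them (42.3%) belonged to the weakest quintile of B6 DMC1. Their median H3K4me3 in Ewsr1 CKO was 0.575 RPM. Sites at least 2-fold higher in Prdm9 het had a median B6 share of 93.7 ppm and a median H3K4me3 of 2.29 RPM, against 0.879 RPM over all sites. Of these 259 sites, 146 (56.4%) belonged to the decile richest in H3K4me3, and 222 (85.7%) overlapped an interval of the deposited H3K4me3 list, against 55.9% of all autosomal sites. Of the 769 sites favoured in Ewsr1 CKO, 254 (33.0%) overlapped such an interval. The 156 sites at least 4-fold higher in Ewsr1 CKO were unlike the larger group in H3K4me3, since 31 of them (19.9%) were in the richest decile and 53.2% overlapped a listed interval. Their median B6 share was 57.0 ppm. B6 and Ewsr1 CKO H3K4me3 are not part of the ratio, although the H3K4me3 values used are those of 1 of the compared genotypes.

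The log2 ratio was higher at weak hotspots than at strong ones. Strength was taken from the B6 column, whose noise does not enter the ratio. The weakest decile had a median log2 ratio of 0.49 (quartiles 0.07 and 0.93). Of its 875 sites, 190 (21.7%) were at least 2-fold higher in Ewsr1 CKO, against 8.79% of all sites. Another 15 (1.71%) were at least 2-fold higher in Prdm9 het, against 2.96% of all sites. The median was 0.20 in the decile just below the middle of the ranking and −0.0082 in the seventh decile. Above that it changed little, with −0.06, −0.09 and −0.04 in the 3 strongest deciles. How near to 0 these lay depended on the scaling: with equal column medians they were −0.20, −0.23 and −0.18, and the weakest decile was at 0.35. The strongest quintile lay 0.46 log2 units below the weakest. The weakest quintile held 4.71% of the signal in Ewsr1 CKO, 3.67% in Prdm9 het and 3.64% in B6, and the strongest quintile held 51.5%, 53.6% and 56.8%. The size of the trend depended on the column used for the ranking. The difference between the outer quintiles was −0.91 when sites were ranked by Prdm9 het, −0.22 when ranked by Ewsr1 CKO and −0.60 when ranked by the mean of both. The value from B6 lay between those from the compared columns, whose own noise enters both the ranking and the ratio.

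H3K4me3 separated the genotypes more than strength did. From the poorest to the richest decile of H3K4me3 in Ewsr1 CKO the median log2 ratio went down at each step, from 0.51 (quartiles 0.14 and 0.91) to −0.45 (quartiles −0.84 and −0.06). In the poorest decile 84.3% of the sites had the higher share in Ewsr1 CKO, and in the richest decile 21.7%. The richest decile held 146 sites at least 2-fold higher in Prdm9 het (16.7% of its 875 sites), and the poorest held 2 (0.229%), against 2.96% of all sites. At least 2-fold higher in Ewsr1 CKO were 39 sites (4.46%) of the richest decile and 188 (21.5%) of the poorest, against 8.79% of all sites. The richest quintile lay 0.77 log2 units below the poorest, a 1.70-fold difference, against a 1.37-fold difference between the outer quintiles of strength. Across sites, Spearman's rho of the log2 ratio was −0.434 with H3K4me3 and −0.304 with B6 DMC1. H3K4me3 and B6 DMC1 were themselves related (rho 0.492). These coefficients are descriptions over 8744 sites of shared libraries.

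**Figure D2:**
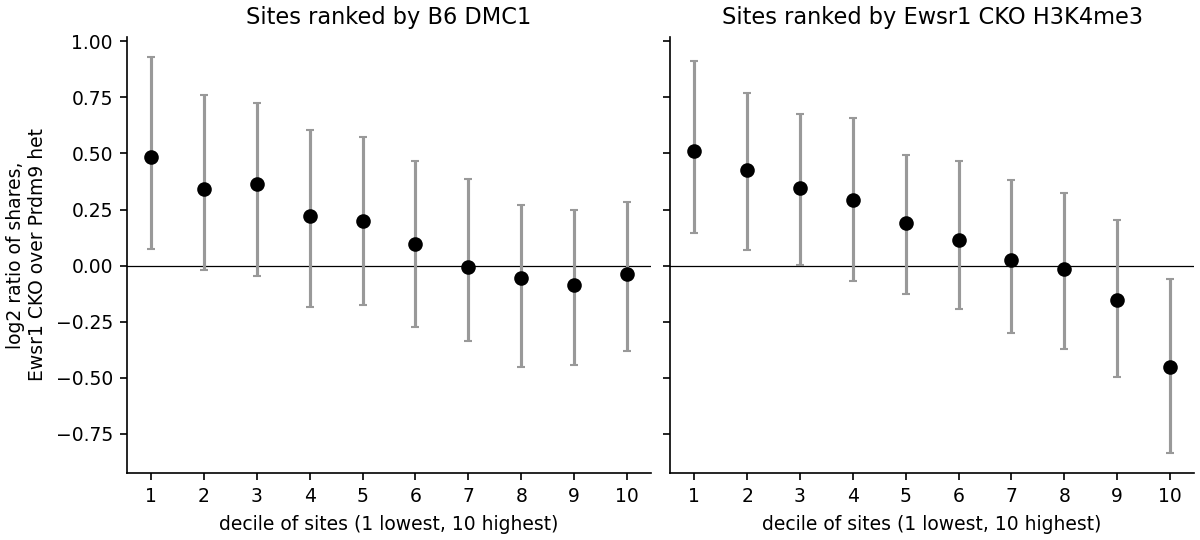
Median log2 ratio of shares (points) with the quartiles (bars) in deciles of sites ranked by B6 DMC1 (left) and by Ewsr1 CKO H3K4me3 (right). The median levels off in the stronger deciles on the left, between −0.09 and −0.0082 from the seventh on with columns set to equal sums, and goes on down to −0.45 in the richest H3K4me3 decile on the right.

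The shares of signal show the same difference without ratios. The richest H3K4me3 decile held 16.9% of autosomal DMC1 in Ewsr1 CKO, 22.3% in Prdm9 het and 20.8% in B6. The next decile held 14.3%, 15.6% and 15.3%. The poorest decile held 4.25% in Ewsr1 CKO, 3.09% in Prdm9 het and 3.48% in B6. The values of B6 thus lay between those of the mutants at both ends of the H3K4me3 ranking, nearer to Prdm9 het. The H3K4me3 values are those of Ewsr1 CKO, and a ranking by H3K4me3 of another genotype was not used here.

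**Figure D3:**
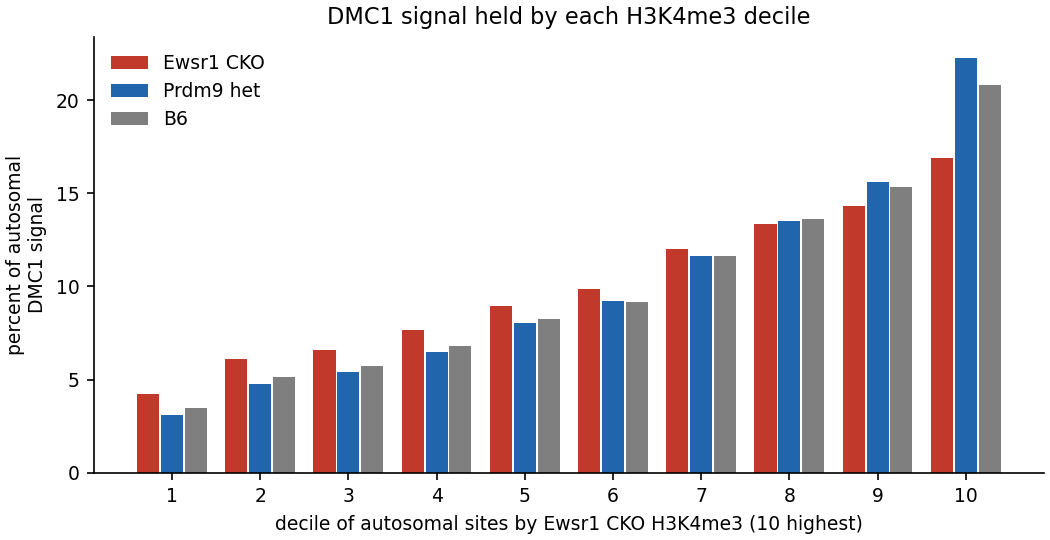
Percent of the autosomal DMC1 signal of Ewsr1 CKO (red), Prdm9 het (blue) and B6 (grey) held by each decile of sites ranked by H3K4me3 in Ewsr1 CKO. The red bar is the highest of the 3 in the poorest decile (4.25%) and the lowest in the richest (16.9%, against 22.3% and 20.8%).

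The separation by H3K4me3 was larger at matched strength than the separation by strength at matched H3K4me3. Within each of the 5 quintiles of B6 DMC1, the richest H3K4me3 quintile had a lower median log2 ratio than the poorest. The differences were −0.75 among the weakest hotspots, −0.68, −0.63 and −0.66 in the middle quintiles and −0.57 among the strongest. Within quintiles of H3K4me3, the strongest hotspots lay below the weakest by smaller amounts, with differences from −0.27 in the poorest quintile to −0.09 in the richest. The highest median was 0.54, in 740 sites that were in the lowest quintile of both measures. The lowest was −0.36, in 469 sites of the fourth quintile of strength with the richest H3K4me3. Weak hotspots with rich H3K4me3 were few (109 sites), and their median was −0.22. Strong hotspots with poor H3K4me3 were fewer still (48 sites), and their median was 0.27.

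**Figure D4:**
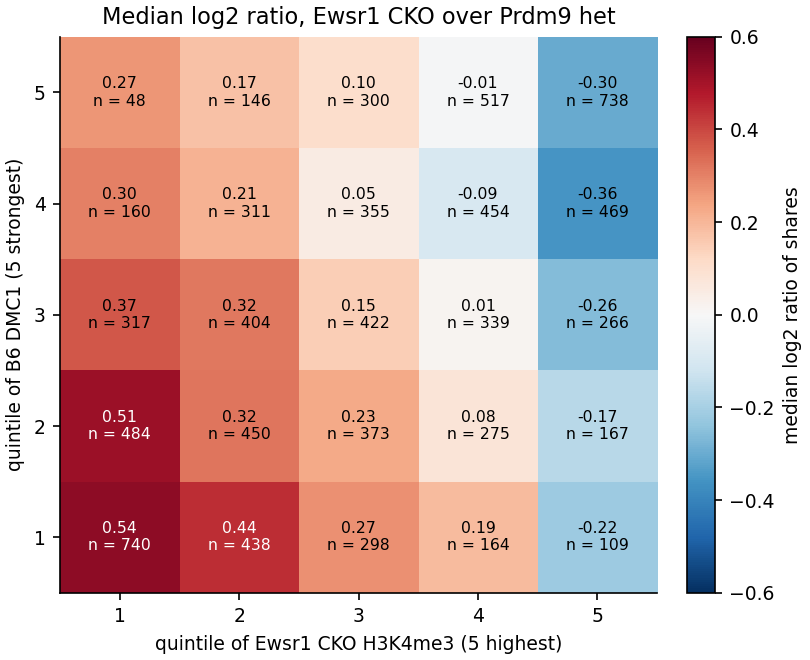
Median log2 ratio of shares in sites grouped by quintile of Ewsr1 CKO H3K4me3 (columns) and of B6 DMC1 (rows), with the number of sites in each cell. The colour changes mainly from left to right, from 0.54 to −0.22 along the bottom row and from 0.27 to −0.30 along the top row.

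The pattern was found on each chromosome. When quintiles were formed within a chromosome, the difference between the richest and the poorest H3K4me3 quintile was negative on 19 of 19 autosomes, from −1.15 on chromosome 17 to −0.50 on chromosome 18. For strength it was negative on 19 of 19 as well, from −0.69 on chromosome 2 to −0.18 on chromosome 15. Sites that overlapped a listed H3K4me3 interval (4890) had a median log2 ratio of −0.04, and the other 3854 sites 0.35. Overlap added little at poor sites: in the poorest H3K4me3 quintile the medians were 0.51 with an interval (41 sites) and 0.47 without. In the richest quintile they were −0.31 (1563 sites) and −0.14 (186 sites).

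H3K36me3, the other mark written by PRDM9, was available at the 4890 sites with a listed interval. The median log2 ratio was 0.06 in the quintile with the lowest H3K36me3 in Ewsr1 CKO and −0.14 in the quintile with the highest. This range was smaller than that for H3K4me3, which was taken over all autosomal sites. The sets differ, since listed sites had a median H3K4me3 of 1.23 RPM and the others 0.547 RPM. At matched H3K4me3 the direction was not uniform. For this comparison the H3K4me3 quintiles were formed anew within the 4890 listed sites. In the poorest of them the tercile richest in H3K36me3 lay 0.26 log2 units above the poorest tercile. In the richest it lay 0.29 units below. The middle quintiles gave 0.26, 0.10 and 0.03. H3K36me3 is also laid down along transcribed genes by other enzymes, and the 2 sources cannot be told apart in these values.

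Sites favoured in Prdm9 het were frequent in the last 2 Mb of the chromosomes. The distance was counted from the last site of the table on each chromosome. Of the 167 sites within 2 Mb of it, 41 (24.6%) were at least 2-fold higher in Prdm9 het, against 2.96% of all sites. Another 16 (9.58%) were at least 2-fold higher in Ewsr1 CKO, against 8.79% of all sites, so that both directions occurred there. The median log2 ratio of the 167 sites was −0.12 (quartiles −0.93 and 0.43). Further in, sites at least 2-fold higher in Prdm9 het were less frequent, with 8 of 174 sites (4.60%) from 2 to 5 Mb and 3 of 300 (1.00%) from 5 to 10 Mb. Over the last 10 Mb (641 sites) the median was −0.00084, against 0.15 in the other 8103 sites. Distal sites were richer in H3K4me3 (1.24 RPM in the last 2 Mb against 0.836 RPM at sites over 50 Mb from the end). By quintile of H3K4me3 the distal difference was largest among rich sites. In the richest quintile the median was −0.61 in the last 10 Mb (156 sites) and −0.27 elsewhere, and in the poorest it was 0.43 and 0.47. Among 10 Mb windows with at least 10 sites, the 4 lowest medians lay at or towards the end of chromosomes 2 (−0.82 over 13 sites from 180 Mb), 7 (−0.78 over 20 sites from 140 Mb), 16 (−0.58 over 27 sites from 90 Mb) and 15 (−0.52 over 16 sites from 100 Mb). These windows held 6, 8, 6 and 3 sites at least 2-fold higher in Prdm9 het and none at least 2-fold higher in Ewsr1 CKO. The fifth lowest, on chromosome 15 from 70 to 80 Mb, was not at an end. Its median was −0.52 over 50 sites, of which 12 were at least 2-fold higher in Prdm9 het and 1 in Ewsr1 CKO.

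The 10 sites with the lowest ratios among hotspots of at least median B6 strength had Ewsr1 CKO shares of 19.9 to 117 ppm and Prdm9 het shares of 116 to 718. Of these, 8 belonged to the richest H3K4me3 decile, 6 were in the distal 2 Mb, and 6 overlapped the body of a protein-coding gene. The lowest was on chromosome 2 at 25629393 to 25632180, over Fcna, which encodes a ficolin, a sugar-binding protein of innate immunity. Its shares were 99.1 ppm in Ewsr1 CKO, 718 in Prdm9 het and 727 in B6, a log2 ratio of −2.85. Here Prdm9 het was close to B6 and Ewsr1 CKO was the low column. Its H3K4me3 of 1.26 RPM was not in the richest decile.

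The next was the last listed site of chromosome 10, at 130542171 to 130544985, where the shares were 39.8, 286 and 161 ppm in Ewsr1 CKO, Prdm9 het and B6, with 8.67 RPM of H3K4me3. The site on chromosome 2 at 181336431 to 181338526 overlapped Rtel1, which encodes a DNA helicase that protects telomeres and limits recombination, and had shares of 19.9, 116 and 66.7 ppm. At the last listed site of chromosome 19, at 61151791 to 61154940, the shares were 68.0, 373 and 211 ppm, and H3K4me3 was 8.75 RPM. At these 3 sites B6 lay between the mutants. A site on chromosome 17 at 74541072 to 74543734, over Birc6, an inhibitor of apoptosis, differed from them: the shares were 78.3 ppm in Ewsr1 CKO, 70.7 in B6 and 402 in Prdm9 het, so that Prdm9 het was the high column, and H3K4me3 was 0.961 RPM. The site on chromosome 4 at 120241719 to 120244602, 22.5 kb from Foxo6, a forkhead transcription factor gene, also had its high value in Prdm9 het, with 117 ppm in Ewsr1 CKO, 134 in B6 and 464 in Prdm9 het, but its H3K4me3 was 7.07 RPM, in the richest decile.

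At the opposite end, the 10 highest ratios among hotspots of at least median B6 strength had Prdm9 het shares close to 0. That these sites were strong follows in large part from the choice, since a high ratio with 1 ppm added needs a high Ewsr1 CKO share. Their Ewsr1 CKO shares were 244 to 880 ppm, their B6 shares 243 to 1073 and their Prdm9 het shares 1.34 to 6.84. They lay on chromosomes 3, 5, 8, 9 and 14, none in the distal 2 Mb, and 7 of them were in the richest H3K4me3 decile. Strong hotspots had more H3K4me3 in general, with a median of 1.57 RPM in the strongest decile of B6 DMC1 against 0.879 RPM over all sites. The highest was on chromosome 9 at 83859376 to 83862215, over Ttk, which encodes a kinase of the spindle checkpoint, with 880 ppm in Ewsr1 CKO, 1073 in B6 and 3.34 in Prdm9 het, a log2 ratio of 7.67. With so low a Prdm9 het share the size rests on the amount added to each share, and the ratio was 6.06 with 10 ppm added and 8.04 with none. A pair of sites on chromosome 3 at 38903651 to 38906584 and 38955146 to 38957986 lay over Fat4, which encodes a large cadherin. The first had 771, 897 and 4.69 ppm in Ewsr1 CKO, B6 and Prdm9 het, and the second 558, 616 and 4.16. On chromosome 14 at 54231743 to 54234538, 0.9 kb from Dad1, which encodes a subunit of the oligosaccharyltransferase, the shares were 244, 243 and 1.34 ppm, with 5.51 RPM of H3K4me3 in Ewsr1 CKO.

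The 156 sites at least 4-fold higher in Ewsr1 CKO, most of them weaker than these 10, were unevenly placed along the genome. They held 2.23% of the signal in Ewsr1 CKO, 2.47% in B6 and 0.187% in Prdm9 het. Chromosomes 14, 9, 8 and 3 carried 53, 24, 19 and 11 of them, together 107 (68.6%), while these chromosomes carry 21.1% of the autosomal sites. None lay on chromosomes 10, 11, 13 or 19. Of 246 windows of 10 Mb with at least 10 sites, 194 had none, and 5 windows with 225 sites (2.57% of all) held 68 (43.6%). On chromosome 14 between 10 and 20 Mb, 30 of 41 sites were at least 4-fold higher in Ewsr1 CKO and the median log2 ratio was 2.39. The window took 0.492% of the signal in Ewsr1 CKO, 0.483% in B6 and 0.157% in Prdm9 het. On chromosome 8 between 30 and 40 Mb the sites fell apart: 12 of 45 were at least 4-fold higher in Ewsr1 CKO, 4 were at least 2-fold higher in Prdm9 het, and the quartiles of the log2 ratio were −0.39 and 2.85. The windows on chromosome 3 from 30 Mb, chromosome 9 from 40 Mb and chromosome 7 from 110 Mb held 10 of 45, 9 of 41 and 7 of 53 such sites. Without chromosomes 3, 8, 9 and 14, a choice made after seeing these values, the difference between the outer H3K4me3 quintiles was −0.78 and that for strength −0.46.

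**Figure D5:**
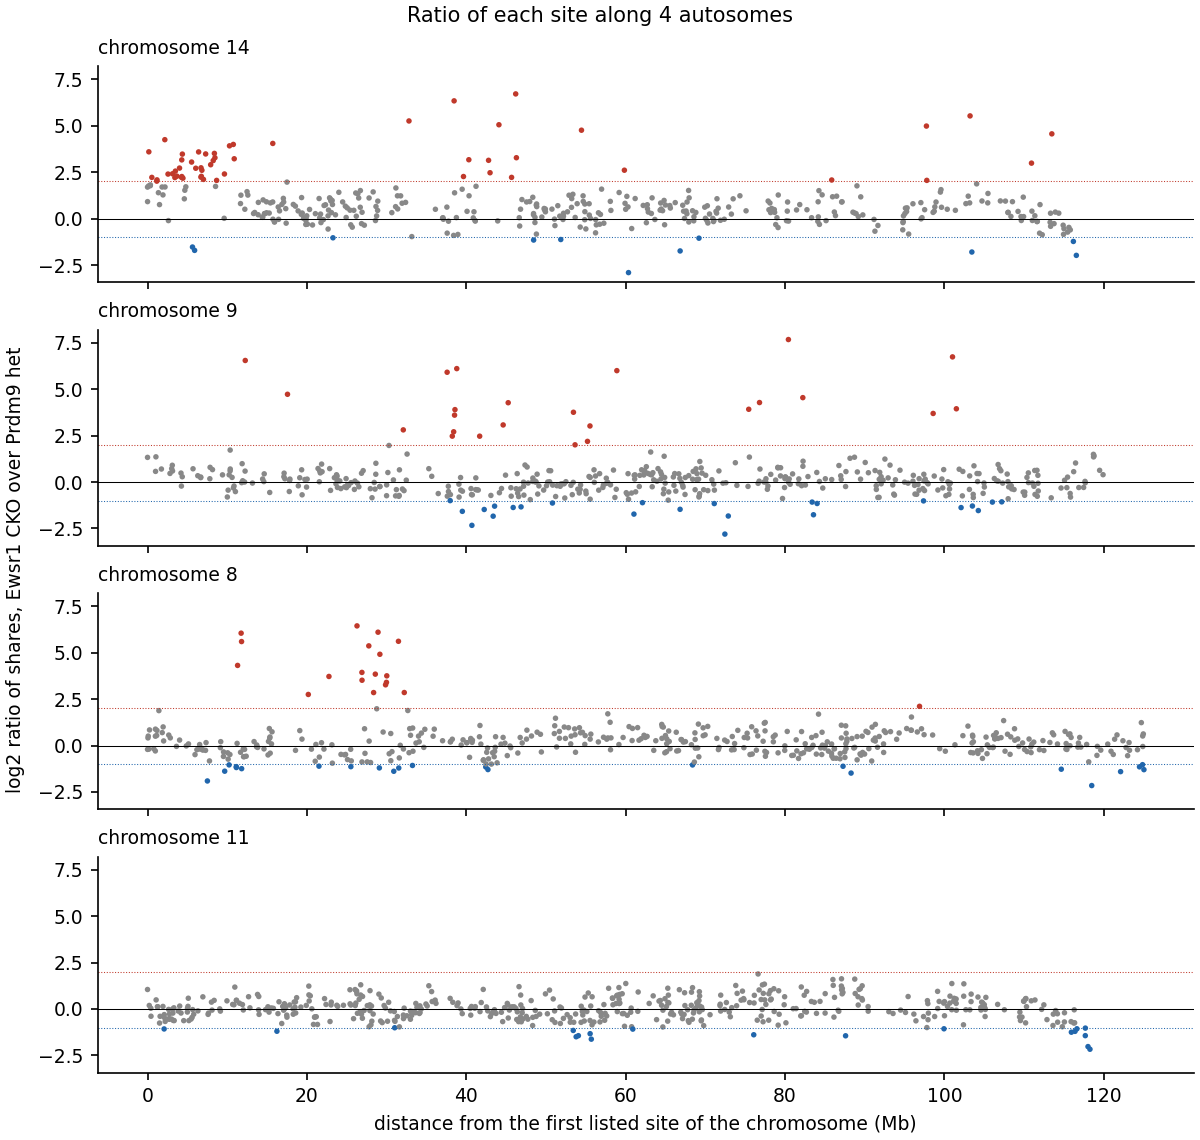
Log2 ratio of shares of each site against its distance in Mb from the first listed site on chromosomes 14, 9 and 8, which carry many sites at least 4-fold higher in Ewsr1 CKO (red), and on chromosome 11, which has none. Red points fill the start of chromosome 14 and stand above a band near 0 on chromosomes 9 and 8, in part close together, and several of the blue points, at least 2-fold higher in Prdm9 het, lie together at the end of chromosome 11.

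Some other windows also had medians away from that of all sites. The log2 ratios of neighbouring sites were weakly related, with a Spearman's rho of 0.269 over 8725 pairs of adjacent sites, and 0.268 over 6886 pairs without chromosomes 3, 8, 9 and 14. The median distance between neighbours was 168 kb. Among whole chromosomes the median log2 ratio was 0.50 on chromosome 14, followed by 0.27 on chromosome 4 and 0.26 on chromosome 6, and the lowest medians were −0.03 on chromosome 15 and −0.01 on chromosomes 5 and 13. The window on chromosome 4 from 70 to 80 Mb had a median of 1.14, with 11 of 20 sites at least 2-fold higher in Ewsr1 CKO, where 8.79% of all sites were, and 0.327%, 0.169% and 0.217% of the signal in Ewsr1 CKO, Prdm9 het and B6. The window on chromosome 1 from 140 to 150 Mb had a median of 0.84, with 11 of 31 such sites and 0.456%, 0.283% and 0.268% of the signal. In both, the B6 share was nearer to Prdm9 het. On chromosome 14 it was nearer to Ewsr1 CKO.

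In the strongest decile of B6 DMC1, 40 of 875 sites (4.57%) were at least 2-fold higher in Ewsr1 CKO and 28 (3.20%) in Prdm9 het, against 8.79% and 2.96% of all sites. The 5 strongest autosomal sites had B6 shares of 1512 to 1701 ppm, Ewsr1 CKO shares of 844 to 1419 and Prdm9 het shares of 932 to 1458, and their log2 ratios ran from −0.44 to 0.13. The strongest, on chromosome 1 at 68487445 to 68490678 over Erbb4, a receptor tyrosine kinase gene, had 1419 ppm in Ewsr1 CKO and 1458 in Prdm9 het. The lowest ratio of the 5 was on chromosome 11 at 89610348 to 89613511, over Ankfn1, with 849 and 1149 ppm and the highest H3K4me3 of the 5 (5.08 RPM). Sites typical of the outer strength quintiles were on chromosome 19 at 32997381 to 32999987 (45.5 ppm in Ewsr1 CKO, 34.2 in Prdm9 het) and on chromosome 15 at 54522798 to 54525522 (212 and 220 ppm).

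Sites in and outside gene bodies had similar ratios, and sites at promoters had lower ones and more H3K4me3. Sites that overlapped a protein-coding gene (4729, RefSeq annotation of GRCm38.p6) had a median log2 ratio of 0.13, and the other 4015 sites 0.15. By quintile of H3K4me3, from poorest to richest, the medians were 0.46, 0.35, 0.18, 0.06 and −0.28 in gene bodies and 0.48, 0.28, 0.12, −0.06 and −0.31 outside. The 164 sites that overlapped a RefSeq promoter window, 250 bases before to 50 after a transcript start, had a median of −0.05 and a median H3K4me3 of 1.32 RPM, against 0.14 and 0.873 RPM in the other 8580. In the richest H3K4me3 quintile the medians with and without a promoter window were −0.31 (74 sites) and −0.29, and in the fourth −0.15 (32 sites) and 0.0062. In the middle quintile they were 0.26 (27 sites) and 0.15, the only one of the 5 where promoter sites were higher. In the second they were 0.28 (16 sites) and 0.32, and in the poorest 0.41 (15 sites) and 0.47. The 26 sites whose promoter window held at least 10 CpG dinucleotides had a median log2 ratio of −0.32 and a median H3K4me3 of 4.19 RPM, and the 138 with fewer had 0.0072 and 1.22 RPM. Of 32851 RefSeq windows, 43.5% hold at least 10 CpG.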

How the data were processed

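DMC1 was measured by ChIP-seq in spermatocytes of Ewsr1 CKO, Prdm9 het and B6 mice, and H3K4me3 and H3K36me3 in Ewsr1 CKO. The authors deposited the values in RPM per site, with 1 column per group, per the file headers; the denominator, the peak caller, the handling of duplicates and the merging of replicates are not given in the sources used here. The submitters' processing notes name BWA 0.5.10, Trimmomatic 0.32 and the mm10 build. Another 4 columns matched no sample of this series and were not used here. The H3K4me3 list is labelled as common to B6 and Ewsr1 CKO. Its repeated intervals were averaged, leaving 5567 sites, and overlaps needed 1 bp.

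Each DMC1 column was divided by its sum over autosomal sites and given in parts per 1000000 (ppm), with 1 ppm added before log2. Deciles and quintiles were formed over autosomal sites. A site was called by a fold of 2 or 4. The interval given treats sites as independent and covers no spread between animals. Because the table gives 1 value per group, the design was a description without p-values. The members, classes and lists were chosen with earlier results of these data known. Named sites followed a rule: among sites of at least median B6 DMC1 the 10 highest and 10 lowest ratios, the 5 strongest B6 sites, and the site nearest the median of each strength quintile. Gene names come from RefSeq, GRCm38.p6; exons and introns were not assigned. The functions were tested on simulated data. Python 3.11.15 was used with numpy 2.4.6, pandas 2.3.3, scipy 1.17.1 and, for the figures, matplotlib 3.10.9.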

Additional observations from a re-analysis of the deposited data

How the results depend on the processing

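The differences by strength, H3K4me3, listed H3K4me3 and distal position kept their direction under each alternative run. The median log2 ratio (0.14) became −0.0013 with equal column medians, 0.12 with a pseudocount of 10 ppm, 0.059 without sites below the B6 lower quartile and 0.12 without chromosomes 3, 8, 9 and 14. The percent of sites higher in Ewsr1 CKO (59.6%) became 49.9% with equal medians and 54.4% without the weaker sites. The 769 sites at least 2-fold higher in Ewsr1 CKO became 397 with the larger pseudocount and 394 without the weaker sites, and the 259 higher in Prdm9 het became 391 with equal medians. The strength difference (−0.46) became −0.33 with the larger pseudocount, −0.32 without the weaker sites, and −0.60, −0.22 and −0.91 when ranked by the mean of both mutants, by Ewsr1 CKO or by Prdm9 het. The H3K4me3 difference (−0.77) became −0.64 with the larger pseudocount and −0.66 within quintiles of B6 DMC1, and that for listed H3K4me3 (−0.39) became −0.32 under both. Rank correlation (0.888) became 0.837 without the weaker sites and 0.910 without the 4 chromosomes. A larger pseudocount shrinks ratios by construction, and equal medians pull the median log2 ratio towards equality. The sites left out below the B6 lower quartile were among those with higher ratios. Other causes were not tested. For 30 named sites, 38 of 120 recomputed ratios moved outside the 95% interval set by the sampling error of Ewsr1 CKO alone. None changed sign past 2-fold. The settings without chromosomes 3, 8, 9 and 14, without promoter sites and with quintiles within autosomes were added after seeing the data. No paired analysis was possible because a group has a single combined column without replicate numbers, so fits with 1 replicate left out were not run either.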

Other observations

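Proximal ends of the chromosomes, which hold the centromeres in mice, were examined by distance from the first listed site. The 179 sites within 2 Mb of the first listed site of their chromosome had a median log2 ratio of Ewsr1 CKO over Prdm9 het of 0.37 (quartiles −0.0041 and 0.81). Their median H3K4me3 was 0.713 RPM, against 0.879 RPM over all sites, and the ratio at matched H3K4me3 was not tested here. Of the 179 sites, 32 were at least 2-fold higher in Ewsr1 CKO and 0 at least 2-fold higher in Prdm9 het, where 8.79% and 2.96% of all sites were. From 2 to 5 Mb the median was 0.13, close to the 0.14 of all sites, but 26 of 162 sites (16.0%) were at least 2-fold higher in Ewsr1 CKO. From 10 to 20 Mb the median was 0.22 (596 sites). The start of chromosome 14 fed these counts. Without chromosome 14, a choice made after seeing the data, 21 of 166 sites in the first 2 Mb (12.7%) and 10 of 145 from 2 to 5 Mb (6.90%) were at least 2-fold higher in Ewsr1 CKO, against 7.82% of the 8329 sites then left, and the medians were 0.29 and 0.08, against 0.12. Narrow sites also had higher ratios. The narrowest decile had a median of 0.47 and the widest −0.04, and narrow sites were weaker in B6 DMC1. The ratio by width at matched strength was not tested.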
